A study of Mus musculus with 12 samples.

Results

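The renin-angiotensin system genes measured here are Ren1, Agt, Ace, Agtr1a, Agtr1b, Mme, Enpep, Atp6ap2 and Mas1. They were found by gene symbol in the deposited tables, and for each symbol the transcript with the highest total over all libraries was used, so these are 9 of 24421 genes. Kidney RNA was sequenced from 12 male C57BL/6 mice (C57BL/6J in the study's methods) at 6 weeks of age, in 4 groups of 3. WT baseline mice were wild type and Tet2-/- baseline mice were labelled as lacking Tet2, and both are given as healthy controls, with no operation named for them. WT IR and Tet2-/- IR mice had the right renal pedicle clamped for 60 min and the kidney collected 24 h later (ischemia-reperfusion, IR). The left kidney was removed in the IR mice, so the IR groups differ from the baseline groups by surgery and loss of a kidney as well as by ischemia. The Tet2-/- mice were bred from heterozygous pairs, so the deletion is not limited to a kidney cell type.

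Renin, made by juxtaglomerular cells in the wall of the afferent arteriole, cuts angiotensinogen to angiotensin I. Angiotensin-converting enzyme turns angiotensin I into angiotensin II, which acts through the AT1 receptor to constrict vessels, retain sodium and slow renin release. A second arm, which includes neprilysin and the Mas receptor, converts these peptides to forms that oppose angiotensin II. The kidney holds its own set of these genes, since proximal tubule cells make angiotensinogen and carry Ace and several angiotensin-cutting peptidases on their brush border.

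The tables held between 51007366 and 107969888 counts per library over 1 transcript per gene. The Tet2 transcript was not lower in the baseline libraries labelled Tet2-/-, with FPKM (reads scaled to transcript length and to library size) of 9.25, 16.6 and 10.3 against 9.15, 6.25 and 7.33 in WT. After IR the Tet2 FPKM was 2.64, 3.197 and 1.76 in the libraries labelled Tet2-/- and 9.34, 3.97 and 3.86 in WT (adjusted p = 0.069). At baseline all 3 libraries labelled Tet2-/- were above all 3 WT libraries, which is not what the label alone would give (log2 fold change 0.76, unadjusted p = 0.0157, adjusted p = 0.321). A deleted allele can still give reads outside the deleted part, and counts per gene do not show which part the reads came from, so this does not check the deletion. The Tet2-/- groups are therefore named by their label only, also where the word labelled is left out for brevity. Adipocyte marker RNA was high in WT baseline replicates 2 and 3 and in Tet2-/- IR replicate 3, with a summed FPKM up to 163 in a list of 7 genes, against 0.497 to 10.3 in the other 9 libraries. A list of 9 adrenal genes summed to 0.777 to 2.30 FPKM, most of it Star (0.566 to 1.89), and of its defining genes Cyp11b1, Cyp11b2 and Th stayed at or below 0.01 FPKM in all 12 libraries. Dbh was 0.135 to 0.274 FPKM in Tet2-/- IR libraries and at most 0.082 elsewhere, and was the 1 gene of this list called, higher after IR in the Tet2-/- labelled kidneys. The 10 proximal tubule markers all averaged at least 1 FPKM in every group.

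The promoters of Ren1, Agt and Ace are shown because these genes encode the substrate and the enzymes of the cascade. Agt and Ace were called lower in the same 3 comparisons, and Ren1 was called in none. Each line gives the 250 bases before the start of the transcript used here, on the strand of the gene, read from the mm9 genome. Capitals mark matches to 4 short motifs, searched on both strands: the TATA box TATAAA, the GC box GGGCGG bound by SP1, the AP-1 motif TGANTCA, and TAATAAA, part of the HOX and PBX element of the renin promoter.
Ren1, chr1:135247001-135247250, plus strand: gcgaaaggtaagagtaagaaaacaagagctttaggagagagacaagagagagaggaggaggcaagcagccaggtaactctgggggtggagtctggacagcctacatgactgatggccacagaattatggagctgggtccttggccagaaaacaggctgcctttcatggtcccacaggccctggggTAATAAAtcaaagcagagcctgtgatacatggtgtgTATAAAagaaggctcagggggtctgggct
Agt, chr8:127093608-127093857, minus strand: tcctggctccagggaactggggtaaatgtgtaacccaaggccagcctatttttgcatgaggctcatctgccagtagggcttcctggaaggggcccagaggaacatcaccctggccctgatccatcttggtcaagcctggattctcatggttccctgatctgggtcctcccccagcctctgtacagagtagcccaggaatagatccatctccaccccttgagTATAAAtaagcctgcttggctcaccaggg
Ace, chr11:105829009-105829258, plus strand: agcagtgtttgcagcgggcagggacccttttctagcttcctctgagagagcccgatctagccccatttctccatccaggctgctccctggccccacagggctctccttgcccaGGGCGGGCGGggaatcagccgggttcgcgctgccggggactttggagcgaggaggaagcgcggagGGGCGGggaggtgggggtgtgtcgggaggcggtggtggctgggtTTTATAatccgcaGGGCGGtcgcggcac
Ren1 and Agt each held TATAAA 29 bases before the start, and Ace held it on the opposite strand, read as TTTATA, with its first base 28 bases before the start. TATAAA was present in the same window of 12% of 24351 genes, and in 5 of the 9 renin-angiotensin genes, the other two being Agtr1b and Enpep. TAATAAA lay 65 bases before the start of Ren1 and in no other of the 9 windows, and 3.85% of all windows held it. Ace held 4 GC boxes, of which the first 2 overlap each other. Mme, Agtr1a and Atp6ap2 also held GC boxes, a motif found in 41.5% of all windows. The AP-1 motif was found in Mme alone among the 9, against 6.17% of all windows. These matches describe the letters only, and no binding was measured.

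The levels of the 9 genes spanned a wide range. In WT baseline kidneys Ace had the highest mean, 47.3 ± 9.01 FPKM (SD, n = 3), and stood apart from the next gene. Atp6ap2 (30.7 ± 5.38), Agt (28.1 ± 2.30), Ren1 (24.5 ± 6.72), Mme (19.9 ± 10.05) and Enpep (18.4 ± 5.62) followed in an order whose neighbours overlapped between libraries. Agtr1a (9.36 ± 0.547), Mas1 (1.27 ± 0.547) and Agtr1b (0.0167 FPKM) came next, each separate from its neighbour. The order was different in the Tet2-/- IR kidneys, where Ren1 had the highest mean (60.6 ± 40.8 FPKM), followed by Atp6ap2 (31.99 ± 3.17), Ace (15.3 ± 3.94) and Agt (13.6 ± 5.14). Ren1 overlapped Atp6ap2 there, so the first place of Ren1 is not beyond the spread.

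**Figure D1:**
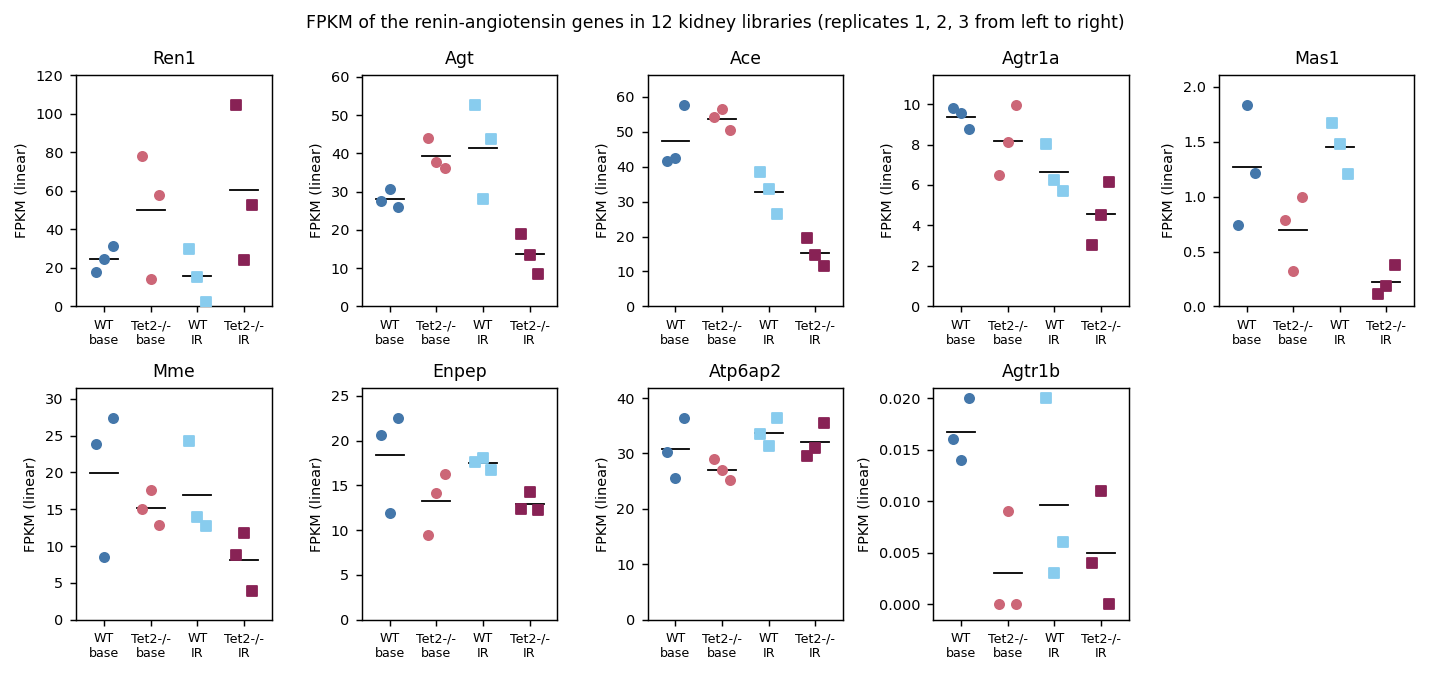
FPKM on linear axes of the 9 genes in each of the 12 libraries. Points are libraries (circles baseline, squares IR, replicates 1 to 3 from left to right) and black lines are group means. The 3 Tet2-/- IR libraries lie below those of every other group for Agt, Ace and Mas1, except that Mas1 overlaps Tet2-/- baseline replicate 2, while the groups of Ren1 are spread over one another.

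Ischemia was followed by lower expression of 5 of the 8 genes that could be tested in the kidneys labelled Tet2-/-, and by no called change in WT kidneys. Calls required an adjusted p under 0.05 in edgeR's quasi-likelihood test (Benjamini-Hochberg over all genes tested) together with a log2 fold change beyond 1 in either direction. The fitted folds use edgeR's TMM scaling between libraries in addition to library size. FPKM does not use TMM, so ratios of FPKM differ from the fitted folds. Agtr1b had too few reads to be tested in any comparison. In the Tet2-/- labelled kidneys Ace, Agt, Mas1, Mme and Agtr1a were called lower after IR and no member was called higher. Over the alternative fits Ace and Agt were called in all 16, Agtr1a and Mme in 8 of 16, and Mas1 in 10 of 15. Among all 16359 genes tested, 11.6% were called lower and 12.7% higher in this comparison. The median log2 fold change was -1.14 over the 8 members and 0.044 over all genes. In WT kidneys 0 of 8 members were called in either direction, where 0.887% of 16015 genes were called lower and 1.46% higher. With the replicate number as a block this balance turned, with 428 of all genes called higher and 559 lower in place of 234 and 142, and still 0 members. Ace and Agtr1a were the 2 members with an unadjusted p under 0.05 in WT, beside 3640 of all 16015 genes. DESeq2 and limma also called 0 members there.

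Between genotypes, no member was called at baseline and 3 were called lower after IR in the libraries labelled Tet2-/-. At baseline 0.0124% of 16086 genes were called higher and 0% lower. Agt was the only member with an unadjusted p under 0.05 at baseline, beside 1891 of all 16086 genes. DESeq2 and limma also called 0 of the 8 members there. After IR, Ace, Agt and Mas1 were called lower, beside 3.85% of 16186 genes called lower and 2.3% called higher. Which members were called there depended on single libraries: leaving out WT IR replicate 1, WT IR replicate 3 or Tet2-/- IR replicate 2 left 0 called, and leaving out Tet2-/- IR replicate 3 left 1. The log2 fold changes stayed past 1 in size in all 6 leave-one-out fits, at -1.41 to -1.07 for Ace, -2.05 to -1.51 for Agt and -3.43 to -2.45 for Mas1, so these calls were lost on the adjusted p. The test of the difference between the 2 IR effects (the genotype by IR interaction, adjusted p under 0.05) called Ace and Agt, both lower, where 5.39% of 16741 genes were called lower and 3.79% higher. Without the 3 libraries rich in adipocyte markers neither passed, though the differences stayed about as large, at -1.53 for Ace (adjusted p = 0.0734) and -2.12 for Agt (adjusted p = 0.0828), and 3 of all genes were then called. That fit keeps 1 WT baseline library, which is assumed to vary like the other groups, so its lost calls say nothing of adipocyte content. The genotype comparison after IR and the IR effect in Tet2-/- labelled kidneys share the 3 Tet2-/- IR libraries, so their calls are not separate evidence.

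**Figure D2:**
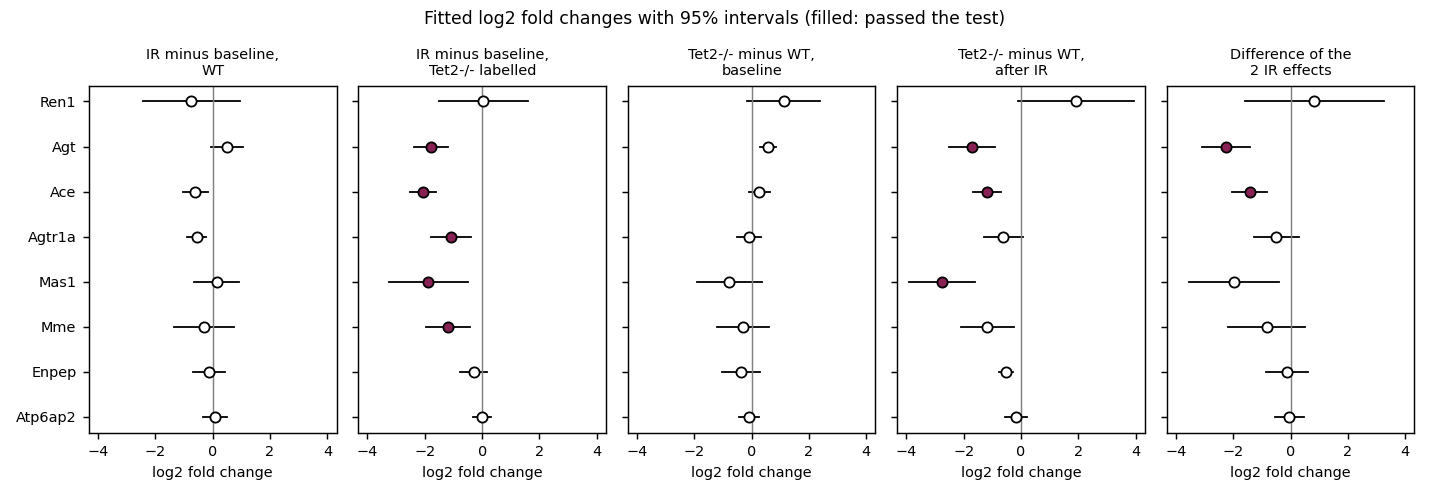
Log2 fold changes fitted by edgeR (points) with 95% intervals (lines) for the 8 tested genes, 1 panel per comparison. Filled points passed the test. Filled points occur for IR in Tet2-/- labelled kidneys, for the genotypes after IR and for the interaction, and all lie below 0, while the intervals of Ren1 include 0 in all 5 panels.

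Agt encodes angiotensinogen, the only substrate of renin. Its FPKM was 27.5, 30.6 and 26.1 in WT baseline libraries and 44.1, 37.8 and 36.1 in those labelled Tet2-/- at baseline. After IR it was 52.7, 28.0 and 43.7 in WT and 18.8, 13.4 and 8.51 in Tet2-/-. Every Tet2-/- IR library was below every library of the other groups, and the Tet2-/- baseline libraries were all above the WT baseline libraries. Agt fell after IR in the Tet2-/- labelled kidneys by 1.80 on the log2 scale (95% interval -2.39 to -1.20, adjusted p = 0.00143), a fitted fold of 0.288. Its mean FPKM, without TMM, was 34.5% of baseline. In WT the log2 fold change was 0.51 (-0.04 to 1.06, adjusted p = 0.252), with the groups overlapping. Its baseline difference between genotypes was 0.58 (0.31 to 0.85) and did not pass (adjusted p = 0.206). After IR, Agt was lower in the libraries labelled Tet2-/- by a log2 fold change of -1.73 (SE 0.34, adjusted p = 0.0281). The IR effects differed between the genotypes by -2.26 (SE 0.38, adjusted p = 0.00746). In bulk tissue, fewer cells that make a transcript and less of it per cell cannot be told apart, and this holds for each of the genes below.

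Ace encodes angiotensin-converting enzyme. Its FPKM was 41.7, 42.6 and 57.7 in WT baseline and 54.1, 56.5 and 50.6 in Tet2-/- baseline kidneys. After IR it was 38.5, 33.7 and 26.4 in WT and 19.5, 14.8 and 11.7 in Tet2-/-. Both IR groups lay below their baseline groups without overlap, and the Tet2-/- IR libraries lay below all others. Ace fell after IR in the Tet2-/- labelled kidneys by 2.07 on the log2 scale (95% interval -2.53 to -1.61, adjusted p = 0.000332), a fitted fold of 0.238. Its mean FPKM, without TMM, was 28.5% of baseline. In WT the log2 fold change was -0.60 (-1.04 to -0.16, adjusted p = 0.127), and the mean was 69.4% of baseline. After IR, Ace was lower in the libraries labelled Tet2-/- (-1.19, SE 0.21, adjusted p = 0.0206), and the difference of the IR effects was -1.42 (SE 0.28, adjusted p = 0.0133). The adjusted p of the genotype difference after IR rose to between 0.0517 and 0.0714 for Ace when WT IR replicate 1 or 3 or Tet2-/- IR replicate 2 or 3 was left out. For Agt the same 4 omissions gave 0.0608 to 0.0854. Ace lies at chr11:105829259-105851278 on the plus strand of mm9, and the gene Gm11651 overlaps it on the minus strand. Whether the counting used strand is not given in the sources used here, so reads from the shared stretch could be counted for either gene.

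Ren1 encodes renin, the enzyme that limits the rate of the cascade. Its FPKM was 17.7, 24.8 and 31.1 in WT baseline and 78.4, 14.4 and 57.7 in Tet2-/- baseline kidneys. After IR it was 29.9, 15.2 and 2.31 in WT and 104.8, 24.3 and 52.6 in Tet2-/-. In each comparison the groups overlapped, and 2 libraries of each Tet2-/- group were above every WT library. Ren1 was called in no comparison. The log2 fold change between genotypes was 1.12 at baseline (95% interval -0.14 to 2.38, adjusted p = 0.464) and 1.91 after IR (-0.11 to 3.93, adjusted p = 0.195). The IR effect was -0.74 in WT (-2.45 to 0.96, adjusted p = 0.576) and 0.04 in the Tet2-/- labelled kidneys (-1.52 to 1.59, adjusted p = 0.972). The intervals between genotypes include a doubling and the interval of the IR effect in WT includes a log2 change of -1, and that in Tet2-/- labelled kidneys includes both, so differences of these sizes are not excluded by these data. With single libraries left out the Ren1 difference between genotypes was 0.68 to 1.56 at baseline and 1.27 to 2.76 after IR, and its IR effect was -1.58 to -0.24 in WT and -0.61 to 0.48 in Tet2-/- labelled kidneys. With the replicate number as a block the IR effect in WT was -1.18 (adjusted p = 0.376).

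Ren1 varied more between kidneys of a group than nearly any other gene. Its highest library was 12.9 times its lowest in WT IR, 5.43 times in Tet2-/- baseline, 4.32 times in Tet2-/- IR and 1.76 times in WT baseline kidneys. The SD within groups was 1.27 on the log2(FPKM + 0.1) scale, and 0.36% of 12213 genes with a mean of at least 1 FPKM had a larger one. The median SD was 0.22. Among the other members it was 0.68 for Mme, 0.56 for Mas1, 0.38 for Agt, 0.33 for Enpep, 0.32 for Agtr1a, 0.27 for Ace and 0.16 for Atp6ap2. Counting error is small beside this spread for Ren1, since its lowest library still held 256.5 counts and its highest 16400.

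The Ren1 level was low where other transcripts of the vessel wall were low in 1 library, WT IR replicate 3. There Ren1 was 2.31 FPKM, and Akr1b7, an enzyme made by renin cells, was 0.17 FPKM against 0.761 to 2.51 in the other 11 libraries. Gja5, the connexin of juxtaglomerular cells and arterial endothelium, was 0.261 FPKM there against 1.14 to 5.06. The summed level of 9 smooth muscle and mesangial markers was 14.0 FPKM in that library and 34.3 to 152 in the others. Podocyte markers (6 genes) summed to 4.73 FPKM there, and to 16.1 to 92.3 elsewhere. The part of vessel and glomerular content in the Ren1 level was not tested. In the Tet2-/- baseline libraries Ren1 spanned 14.4 to 78.4 FPKM while those smooth muscle and mesangial markers summed to 43.9 to 64.6 FPKM.

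**Figure D3:**
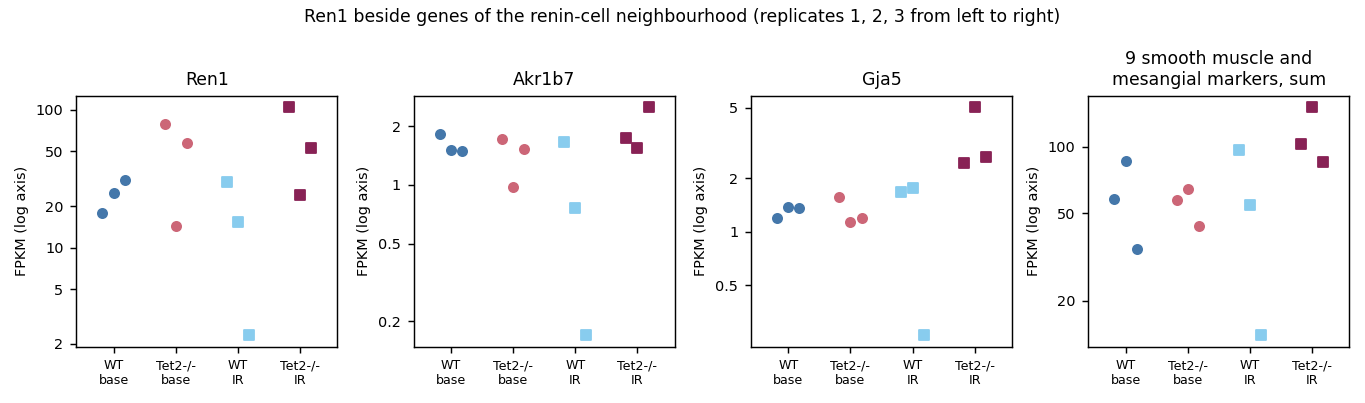
FPKM on log axes of Ren1, Akr1b7 and Gja5, and the summed FPKM of 9 smooth muscle and mesangial markers, in each library (replicates 1 to 3 from left to right). WT IR replicate 3 is the lowest library in all 4 panels, while within the Tet2-/- baseline group Ren1 is spread more widely than the quantities in the other panels.

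The files also list Ren2, the second renin gene of some mouse strains, at chr1:135247143-135256900 of mm9, over the same place as Ren1 at chr1:135247251-135256896. C57BL/6 mice carry a single renin gene. The Ren2 count was 98.4% to 99.2% of the Ren1 count in the 12 libraries, so the 2 rows report the same reads, and Ren1 here stands for the renin gene of this strain.

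Among the angiotensin receptors, Agtr1a and Mas1 fell after IR in the Tet2-/- labelled kidneys. Agtr1a encodes the main AT1 receptor of the mouse kidney. Its FPKM was 9.78, 9.56 and 8.74 in WT baseline, 6.50, 8.10 and 9.96 in Tet2-/- baseline, 8.03, 6.24 and 5.69 in WT IR, and 3.02, 4.52 and 6.15 in Tet2-/- IR libraries. Each IR group lay below its own baseline group, and the 2 IR groups overlapped. Agtr1a fell after IR in the Tet2-/- labelled kidneys by 1.09 on the log2 scale (95% interval -1.79 to -0.40, adjusted p = 0.0218), and in WT the log2 fold change was -0.56 (-0.90 to -0.22, adjusted p = 0.0842). The difference of the 2 effects was -0.49 (-1.26 to 0.28, adjusted p = 0.397). The call in the Tet2-/- labelled kidneys held in 8 of 16 alternatives. It was lost with library sizes alone (-0.87) and in the 3 limma fits (-0.87 to -0.75), where the fold was under the limit, and when Tet2-/- baseline replicate 2 or 3 or Tet2-/- IR replicate 1 or 2 was left out (adjusted p 0.0504 to 0.0787).

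Agtr1b, the second AT1 receptor gene of rodents, had 0 to 4 counts in every library (at most 0.02 FPKM). Agtr2, the AT2 receptor, likewise had 0 to 4 counts. No fold is given for either, since all groups are near the 3 counts that a library at 0 could still hold. The coding sequences of Agtr1a and Agtr1b are 90.8% identical over 1080 bases, with a longest shared run of 66 bases, and reads that lie within a shared run could be counted for either gene.

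Mas1 encodes the receptor of angiotensin 1-7. Its FPKM was 0.746, 1.84 and 1.22 in WT baseline, 0.783, 0.319 and 0.996 in Tet2-/- baseline, 1.67, 1.48 and 1.21 in WT IR, and 0.115, 0.183 and 0.374 in Tet2-/- IR libraries. The 2 IR groups did not overlap, and Tet2-/- baseline replicate 2 lay within the range of the Tet2-/- IR group. Its counts were low, from 31.5 to 448 per library. After IR, Mas1 was lower in the libraries labelled Tet2-/- by a log2 fold change of -2.76 (SE 0.49, adjusted p = 0.0217), with a mean FPKM 15.4% of that in WT. This call was lost when WT IR replicate 1 or 3 or Tet2-/- IR replicate 1 or 2 was left out (adjusted p 0.0552 to 0.0714). Its fall after IR in the Tet2-/- labelled kidneys was -1.87 (SE 0.59, adjusted p = 0.0365), and it was lost without Tet2-/- baseline replicate 1 or 3 or Tet2-/- IR replicate 1 or 2 (adjusted p 0.0929 to 0.124) and with limma on log2(FPKM + 1), a scale that understates low genes (-0.46, adjusted p = 0.0575). The change in WT was 0.13 (adjusted p = 0.846). The difference of the effects, -1.96, had an adjusted p of 0.104. It passed in 3 of 21 alternatives, with the replicate number as a block (adjusted p = 0.0494), in DESeq2 (0.0361) and without Tet2-/- IR replicate 3 (-2.62, adjusted p = 0.0359).

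Among the peptidases that act on angiotensins, Mme was called and Enpep was not. Mme encodes neprilysin, which makes angiotensin 1-7. Its FPKM was 23.9, 8.50 and 27.4 in WT baseline, 15.0, 17.6 and 12.9 in Tet2-/- baseline, 24.3, 13.9 and 12.8 in WT IR, and 8.80, 11.8 and 3.83 in Tet2-/- IR libraries. The Tet2-/- IR libraries were below those of both Tet2-/- baseline and WT IR, and WT baseline replicate 2 was as low as they were. Mme fell after IR in the Tet2-/- labelled kidneys by 1.18 on the log2 scale (SE 0.33, adjusted p = 0.0236). The call held in 8 of 16 alternatives. It was lost with library sizes alone, with all 12 libraries and in the 3 limma fits, and without Tet2-/- IR replicate 3 the log2 fold change was -0.87. Without Tet2-/- baseline replicate 1 or 2 its adjusted p was 0.0592 or 0.0695. In WT the log2 fold change of Mme was -0.31 (adjusted p = 0.716), and the difference of the 2 IR effects was -0.83 (adjusted p = 0.413). Between genotypes after IR it was -1.18 (SE 0.39, adjusted p = 0.101), and DESeq2 alone called it (-1.19, adjusted p = 0.0173).

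Enpep encodes glutamyl aminopeptidase, which turns angiotensin II into angiotensin III. Its FPKM was 20.6, 11.96 and 22.5 in WT baseline, 9.42, 14.2 and 16.2 in Tet2-/- baseline, 17.6, 18.1 and 16.7 in WT IR, and 12.4, 14.3 and 12.3 in Tet2-/- IR libraries. The 2 IR groups did not overlap. After IR it was 1.44-fold lower in the libraries labelled Tet2-/- (log2 fold change -0.53, SE 0.11, adjusted p = 0.029), a difference under the fold needed for a call. Its IR effect was -0.14 in WT (adjusted p = 0.769) and -0.30 in the Tet2-/- labelled kidneys (adjusted p = 0.27). Enpep lies on chromosome 3, 4.09 Mb from Tet2, and linked sequence of the targeted chromosome was not examined here.

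Atp6ap2, the (pro)renin receptor and a part of the vacuolar proton pump, had the smallest spread within groups of the 8 genes that could be tested. Its FPKM was 25.3 to 36.4 over all 12 libraries. The Tet2-/- IR libraries (29.5, 30.9 and 35.6 FPKM) were all above Tet2-/- baseline (29.1, 26.9 and 25.3), with a mean 118% of baseline. With TMM scaling these 2 groups overlapped. Its log2 fold changes were 0.075 and -0.010 for IR in WT and in Tet2-/- labelled kidneys, and -0.093 and -0.18 between genotypes at baseline and after IR. All of these 95% intervals lay between -0.58 and 0.49, inside a log2 change of 1 in either direction. With library sizes alone its IR effect in the Tet2-/- labelled kidneys was 0.21, where the median of all genes moved by 0.23.

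The other genes of the pathway were taken from a list of 18, of which 11 could be tested. Ren2 is 1 of these 11, so the reads of the member Ren1 are counted again there. In WT kidneys after IR and between genotypes at baseline 0 of the 11 were called by edgeR, with 2 genes each at an unadjusted p under 0.05. Among all genes, 3640 of 16015 in WT and 1891 of 16086 at baseline had such a p. Of the 11, DESeq2 called 0 in WT and 1 at baseline, and limma called 0 in both. After IR in the kidneys labelled Tet2-/-, 2 of the 11 rose, 1 fell and 8 were not called, beside 12.7% of all genes called higher and 11.6% lower. Anpep encodes aminopeptidase N, which shortens angiotensin III. Its FPKM was 41.3, 41.7 and 41.6 in WT baseline, 49.1, 48.5 and 44.4 in Tet2-/- baseline, 54.8, 38.0 and 47.4 in WT IR, and 14.9, 9.91 and 7.20 in Tet2-/- IR libraries. The Tet2-/- IR libraries were far below the other 9. Anpep fell there by 2.41 on the log2 scale (SE 0.25, adjusted p = 0.000442), was lower than in WT IR (-2.24, SE 0.29, adjusted p = 0.0123), and its IR effects differed between genotypes by -2.48 (SE 0.32, adjusted p = 0.00381). Without the 3 libraries rich in adipocyte markers that difference was -2.35 (adjusted p = 0.0731), with 1 WT baseline library remaining and the spread taken from the other groups.

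Lnpep, an aminopeptidase that binds angiotensin IV, rose after IR in the Tet2-/- labelled kidneys by 2.18 on the log2 scale (SE 0.37, adjusted p = 0.00289), from 0.59, 0.805 and 0.701 to 4.95, 4.89 and 1.75 FPKM. In WT it was 1.10, 1.94 and 3.51 FPKM at baseline and 2.18, 3.31 and 2.22 after IR. The Tet2-/- baseline libraries were all below those of WT (log2 fold change -1.55, adjusted p = 0.253), and Tet2-/- IR replicate 3 was below all WT IR libraries. Nln, neurolysin, rose by 1.16 (SE 0.12, adjusted p = 0.000431), from 5.11, 5.68 and 5.76 to 16.0, 14.8 and 13.5 FPKM. In WT the Nln libraries after IR, at 10.8, 13.9 and 10.9 FPKM, were also all above baseline (log2 fold change 0.81, adjusted p = 0.0822). The difference of the Nln effects was 0.40 (adjusted p = 0.316). Between genotypes after IR and for the interaction, Anpep was the 1 gene of the 11 called, lower in both. Among all genes, 3.85% and 5.39% were called lower in these 2 comparisons, and 2.3% and 3.79% higher.

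Of 17 genes that control renin release or transcription, 3 rose and none was called lower after IR in the Tet2-/- labelled kidneys. In WT 0 were called by edgeR, and 4 had an unadjusted p under 0.05, beside 3640 of all 16015 genes. A count of 3 in 17 is near the 12.7% of all genes called higher. Ptgs2, cyclooxygenase-2 of the macula densa, went from 0.363, 0.192 and 0.104 to 2.59, 1.18 and 0.713 FPKM (log2 fold change 2.52, SE 0.59, adjusted p = 0.0119). Its IR effects differed between the genotypes by 4.77 (SE 0.96, adjusted p = 0.0139), and in WT it went from 0.975, 2.595 and 0.651 to 0.171, 0.266 and 0.489 FPKM (log2 fold change -2.21, adjusted p = 0.106). Ptgs2 was the 1 gene of the 17 called for the interaction, beside 3.79% of all genes called higher and 5.39% lower. Ptger4, the prostaglandin receptor of juxtaglomerular cells, went up by 1.93 (adjusted p = 0.00813) and Gja5 by 1.10 (adjusted p = 0.0177). The interval of Ren1 in the same comparison was -1.52 to 1.59. None of the 17 was called between genotypes at baseline or after IR, with 2 and 3 at an unadjusted p under 0.05. Among all genes, 1891 of 16086 at baseline and 4671 of 16186 after IR had such a p.

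Among 14 genes of AT1 receptor signalling, 1 rose after IR in the Tet2-/- labelled kidneys and 13 were not called, a share below the 12.7% of all genes called higher. Edn1, endothelin 1, which angiotensin II is known to induce, went from 0.794, 0.679 and 0.42 to 6.23, 4.34 and 3.96 FPKM. In WT it went from 0.645, 0.538 and 0.398 to 0.659, 1.72 and 0.507 FPKM. All 3 Tet2-/- IR libraries were above the other 9. Edn1 rose in the Tet2-/- labelled kidneys by 2.69 on the log2 scale (SE 0.30, adjusted p = 0.000599), and was higher than in WT after IR (2.27, SE 0.46, adjusted p = 0.0293). The difference of the IR effects was 1.94 (SE 0.59, adjusted p = 0.0609). Edn1 also responds to other injury signals, and its link to the receptor was not tested. In the kinin system, which Ace and Mme also act on, Bdkrb2, the bradykinin B2 receptor, was the 1 gene of 5 tested that rose in the Tet2-/- labelled kidneys (log2 fold change 2.82, SE 0.73, adjusted p = 0.0173). It was 0.3 FPKM in Tet2-/- IR replicate 3 and 2.33 and 2.31 in the other two.

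Markers of some other cell types moved with these changes. Of 8 endothelial markers 0 were called in any comparison. Of 9 smooth muscle and mesangial markers, 1 rose after IR in the Tet2-/- labelled kidneys and 0 were called in the other comparisons. Those 9 summed to 85.5 to 152 FPKM in Tet2-/- IR and 43.9 to 64.6 in Tet2-/- baseline libraries. In WT they summed to 34.3 to 86.3 FPKM at baseline and 14.0 to 96.9 after IR. Of 10 proximal tubule markers, 6 fell after IR in the Tet2-/- labelled kidneys, 0 were called in WT by edgeR, and 5 were lower than in WT after IR. Among all genes, 11.6%, 0.887% and 3.85% were called lower in these 3 comparisons. In WT, beside 3640 of all 16015 genes, 3 of these 10 markers had an unadjusted p under 0.05. Their summed FPKM was 3895 to 4705 in WT baseline, 4057 to 4789 in Tet2-/- baseline, 2897 to 3694 in WT IR and 1064 to 1643 in Tet2-/- IR libraries. Agt, Ace, Mme and Anpep are made in this cell type, and the part of its marker change in their lower levels was not tested. Not all of the 10 markers moved alike. In WT, the lower sum rests on Slc34a1, the phosphate transporter (mean 1463 to 651 FPKM), and Slc27a2, a fatty acid transporter (1628 to 1173). Slc22a6, an organic anion transporter, was 234 to 253 FPKM in WT baseline and 377 to 440 in WT IR libraries, and the Slc13a3 and Cubn means were also higher after IR, none of them passing the test. In the Tet2-/- labelled kidneys Slc34a1 had a log2 fold change of -3.08 and Slc22a6 of -0.26. The 9 leukocyte markers summed to 112 to 286 FPKM in Tet2-/- IR libraries, against 28.5 to 46.0 in WT IR and 8.86 to 26.1 at baseline. After IR 6 of the 9 rose in the Tet2-/- labelled kidneys, beside 12.7% of all genes. In WT 2 of 8 tested rose, beside 1.46% of all genes. The 6 podocyte markers summed to 49.2 to 92.3 FPKM in Tet2-/- IR libraries and to 4.73 to 29.4 in all others. After IR 5 of them rose in the Tet2-/- labelled kidneys and 0 were called in WT. The 4 tubular injury genes summed to 2850 to 4278 FPKM in Tet2-/- IR and 485 to 1453 in WT IR libraries, from 55.4 to 107 at baseline. All 4 rose after IR in the Tet2-/- labelled kidneys and 3 in WT.

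**Figure D4:**
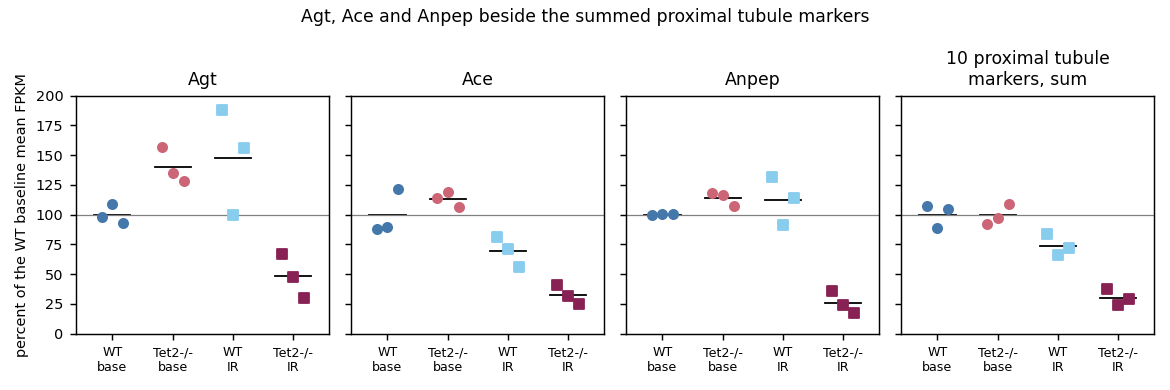
Agt, Ace and Anpep, and the summed FPKM of 10 proximal tubule markers, in each library as a percent of the WT baseline mean of the same quantity (linear axis, group means as black lines). The Tet2-/- IR libraries lie below all others in every panel, and the WT IR libraries are below WT baseline for Ace and for the marker sum but not for Agt or Anpep. In WT baseline libraries the marker sum is mostly that of Slc34a1 and Slc27a2.

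Genes whose pattern over the 12 libraries was most like that of a member were ranked by the root mean square difference of centred log2(FPKM + 0.1), among genes with a mean of at least 1 FPKM. After Ren2, which shares its reads, Akr1b7 (0.79) and Gpihbp1 (0.88) were nearest to Ren1, far apart beside the 1.37 by which Ren1 itself varied about its mean. Agt was nearest to Notum (0.26), Myh14 (0.27) and Slc22a12 (0.29), the urate transporter of the proximal tubule, against its own variation of 0.73. Ace was nearest to the overlapping Gm11651 (0.10), then to Acat1 (0.17), a mitochondrial thiolase, and Slc17a3 (0.17), an organic anion transporter, against 0.74. For Agtr1a these were Pepd (0.10), Brap (0.15) and Hes6 (0.18), against 0.48. These measures describe the 12 libraries, which include the group differences, and carry no test.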

How the data were processed

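Alignment by the authors was to mm9 using STAR, and HOMER gave the counts over RefSeq genes. The authors deposited expected counts, of which 38.7% of values are not whole, and FPKM for the same transcripts. Whole counts had been assumed at the design stage, and the deposited values were therefore rounded before fitting. The files list 34600 transcripts for 24421 symbols, and the transcript with the highest total was used. Each comparison used its own 6 libraries (the interaction all 12) in edgeR 4.0.16 (R 4.3.3) with TMM, its standard filter on low counts, and the quasi-likelihood test, with p-values adjusted by Benjamini and Hochberg across every tested gene. DESeq2 1.42.0 and limma 3.58.1 on log2 FPKM were alternatives. The fits were tested on simulated data. The members and gene lists were chosen with earlier results of these data known. The named genes are the 9 members, Agtr2, Tet2, the called genes of the pathway, renin release, AT1 and kinin lists (at most 3 by fold change per comparison) and the 3 genes most like Ren1, Agt, Ace and Agtr1a. Marker lists are given by counts and sums, and Slc34a1, Slc27a2, Slc22a6, Slc13a3, Cubn, Cyp11b1, Cyp11b2, Th, Star and Dbh of them were named after their values were seen. Results that need 2 genes of the lists are not reported here.

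Depth, 51007366 to 107969888 counts per library, leaves counting error small beside the spread between mice for every member but Agtr1b and, in part, Mas1. Whether the 3 libraries of a group came from separate mice is given by the study's methods and not by each label. Same-numbered libraries deviated together in WT (correlations 0.344 to 0.349) and in Tet2-/- labelled kidneys (0.12 to 0.35), which meets the condition for pairs, though nothing names what they share. The printed IR effects are from the fits without pairing, and fits with the replicate number as a block were alternatives. Between genotypes the correlations of same-numbered libraries were -0.173 to 0.0524 at baseline and -0.00023 to 0.303 after IR, so not all were positive. Transcript positions are those of the files, counted from 1: 13140 of 24421 matched an annotated start as given, and 1017 matched when shifted by 1. Promoter bases and coding sequences came from the mm9 genome and the matching GENCODE annotation. Figures were drawn with matplotlib.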

Additional observations from a re-analysis of the deposited data

Results flagged for a closer look

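The IR effect of 3 genes of the pathway differed between the genotypes in the edgeR interaction test. They are 2 of the 8 members tested and 1 of the 11 other pathway genes tested. Among all 16741 genes tested, 5.39% were called lower and 3.79% higher. Agt differed by a log2 fold change of -2.26 (adjusted p = 0.00746). Ace differed by -1.42 (adjusted p = 0.0133), and Anpep by -2.48 (adjusted p = 0.00381). All 3 were lower after IR in 3 of 3 libraries labelled Tet2-/- than in any library of the other groups. They were named because the test called them, so this separation adds no support to it. Of all genes, 27.3% lay wholly below baseline after IR in the Tet2-/- labelled kidneys. Over the alternatives the adjusted p ran from 8.32e-07 to 0.0828 for Agt, from 2.39e-05 to 0.0734 for Ace and from 4.18e-11 to 0.0731 for Anpep, and the upper end of each range is the fit without the 3 libraries rich in adipocyte markers, which keeps 1 WT baseline library.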

How the results depend on the processing

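The log2 fold changes of Ace, Agt and Anpep kept their sign in every alternative of every comparison, and those of Ace, Agt and Anpep for IR in Tet2-/- labelled kidneys were called in all 16. With library sizes alone the median log2 fold change of all genes moved by 0.23 in that comparison, 0.14 for the interaction and 0.10 between genotypes after IR, and the share of calls that were higher went from 52.3% to 67.2% and, for the interaction, from 41.3% to 61.7%. In WT that share was 62.2%, 49.9% with DESeq2 and 43.4% with the replicate block.

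Members called after IR in Tet2-/- labelled kidneys were 3 with library sizes alone or limma on log2(FPKM + 0.1), 2 with limma on log2(FPKM + 1) with or without the FPKM minimum, and 3 to 4 with single libraries left out. Those called between genotypes after IR were 0 to 3 with single libraries left out. For the interaction none was called without the libraries rich in adipocyte markers (0), an alternative chosen after seeing the data that keeps 1 WT baseline library, which also left 0 of the other pathway genes called. Of those other genes, 1 was called by DESeq2 at baseline and 7 by adjusted p alone for IR in Tet2-/- labelled kidneys. For the interaction 3 were called by DESeq2 and library sizes alone, 2 by limma at either pseudocount and with the minimum, and 1 to 3 with single libraries left out.

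The replicate block gave 987 genes for IR in WT and 4 at baseline, added Mas1 to the members called for the interaction, and changed no other call of a member.

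Of all genes, IR in WT gave 376 calls, 978 with DESeq2, 631 with all 12 libraries, 236 with limma on log2(FPKM + 1), 0 with the adipocyte covariate, 1 without the rich libraries, and 87 to 548 with single libraries left out. IR in Tet2-/- labelled kidneys gave 3974, 7054 by adjusted p alone, 6032 with all transcripts, and 2256 and 2231 with limma on log2(FPKM + 1) without and with the minimum. The baseline gave 2, 321 with DESeq2, 1 with the covariate, 4 with all transcripts or no filter, and 2 to 10 with single libraries left out. After IR the genotypes gave 996, 1642 with DESeq2, 1567 by adjusted p alone, 1593 with all 12 libraries, 1511 with all transcripts, 595 with limma on log2(FPKM + 1), and 294 to 942 with single libraries left out. The interaction gave 1536, 2810 with DESeq2, 2489 with all transcripts, 3 without the rich libraries, and 697 to 2044 with single libraries left out.

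Signs turned only for values that passed no test. For Atp6ap2 after IR in Tet2-/- labelled kidneys the value was 0.030 with all 12 libraries, 0.21 with library sizes alone, 0.24 and 0.23 with limma at the smaller and larger pseudocount, and -0.15 to 0.079 with single libraries left out. In WT it was -0.041 to 0.23, and at baseline 0.094 with the covariate and -0.21 to 0.053 with single libraries left out. For the interaction it was 0.082 with library sizes alone, 0.090 and 0.088 with limma at the smaller and larger pseudocount, and -0.20 to 0.073 with single libraries left out. Enpep gave 0.00040 with limma at the smaller pseudocount in Tet2-/- labelled kidneys, -0.35 to 0.049 in WT, and for the interaction 0.019 with library sizes alone, 0.021 and 0.020 with limma at the smaller and larger pseudocount and -0.32 to 0.045 with single libraries left out. With single libraries left out, Mme ran from -0.65 to 0.0017 in WT and from -0.67 to 0.0023 at baseline, Mas1 from -0.13 to 0.52 in WT, Agtr1a from -0.27 to 0.060 at baseline, and Ren1 from -0.61 to 0.48 in Tet2-/- labelled kidneys. Mas1 at baseline was 0.00094 without the rich libraries. The cause of these changes was not tested.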
